A study of Homo sapiens with 12 samples.

Results

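The genes described here belong to the NRF2 antioxidant pathway. They are 9 genes: HMOX1, NQO1, GCLM, GCLC, TXNRD1, SRXN1 and OSGIN1, which are targets of NRF2, and NFE2L2 and KEAP1, which encode NRF2 and its inhibitor. They were found by symbol among the probe sets that the platform's probe table gives to exactly 1 gene, and all 9 passed the filter on low values, as 9 of the 20572 genes tested. Of 10 such probe sets, SRXN1 had 2, and the one with the higher mean over the 12 arrays was used (16916352).

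The study treated the human breast cancer cell line MDA-MB-231, which was grown from a metastatic pleural effusion and lacks hormone receptors, for 24 h. The 4 groups of 3 arrays were TNFα at 40 ng/ml together with apigenin at 40 µM, apigenin at 40 µM alone, TNFα at 40 ng/ml alone, and untreated cells. TNFα is an inflammatory cytokine and apigenin a plant flavone. All groups come from 1 cell line. The labels say that treatments were prepared in HBSS, and do not say whether untreated cells received HBSS or any solvent.

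NRF2 is a transcription factor that KEAP1 normally holds in the cytoplasm and hands to a CUL3 ubiquitin ligase for degradation. Electrophiles and oxidants modify cysteines of KEAP1, NRF2 then accumulates, pairs with small MAF proteins and binds antioxidant response elements near its target genes. Much of this control acts on NRF2 protein, which arrays do not measure. In breast and other cancer cells the pathway is known for protecting cells from oxidants and reactive drugs.

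Values are deposited log2 expression values of 1 array per sample. Array medians ran from 2.09 to 2.16, and the correlation over genes was 0.983 to 0.991 for arrays of 1 group and 0.966 to 0.990 for arrays of 2 groups. The mesenchymal breast cancer markers VIM, CD44, MSN and AXL lay between 7.29 and 10.3 on every array (CAV1 at 6.43 to 7.19, SPARC at 2.38 to 2.73). ESR1, PGR, FOXA1 and CDH1 lay between 1.37 and 2.44. GATA3 lay between 3.65 and 4.67 and EPCAM between 4.58 and 5.24. CAV1 fell by 0.60 with apigenin and by 0.58 with both agents against untreated cells (limma adjusted p = 0.0023 and 0.0027), and CD44 fell by 0.63 with both agents against TNFα (0.0092); their part in the results was not tested. Fibroblast and endothelial markers stayed between 1.68 and 2.55 for the 5 of 7 tested, with no member called in any comparison. Of all genes, 0.0535% to 12.5% were called, depending on the comparison. Of the leukocyte markers 3 of 6 were tested, CD14 and ITGAM between 1.51 and 2.87 and the lysosomal gene CD68 between 9.52 and 9.95. The arrays measure pooled RNA, so fewer cells carrying a transcript and less transcript per cell cannot be told apart.

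The antioxidant response element was looked for in promoter windows of RefSeq (GRCh38.p14), which run from 250 bases before to 50 bases after a start site. Its core was spelled TGACNNNGC and searched on both strands. It occurs in 13.3% of all 35116 windows of 300 bases, and in 4 of the 11 windows of the 8 members found in the table, which lacks HMOX1. The AP-1 motif TGACTCA, a related sequence, was in 1 of those 11 windows, that of OSGIN1, and in 4.95% of all windows. No match of the antioxidant core contained it. The window of GCLM is shown whole because GCLM had the largest called difference of the 9 genes. It lies on the minus strand at chr1:93909381-93909680 and holds 1 match, in capitals, which reads TGACTAAGC on the opposite strand, at positions -34 to -26 from the start site.
GCLM: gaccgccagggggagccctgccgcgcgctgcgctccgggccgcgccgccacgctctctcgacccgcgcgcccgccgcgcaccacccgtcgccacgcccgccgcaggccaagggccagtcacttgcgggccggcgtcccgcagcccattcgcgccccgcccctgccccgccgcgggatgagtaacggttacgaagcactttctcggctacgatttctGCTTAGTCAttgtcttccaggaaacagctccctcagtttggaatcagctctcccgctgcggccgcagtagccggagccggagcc
The other matches, again in capitals with the bases around them, are shown to compare their cores. TXNRD1 has 2 start sites in the table, on the plus strand of chromosome 12, and KEAP1 has 1 with matches, on the minus strand of chromosome 19.
TXNRD1 at chr12:104215529-104215828, position -99: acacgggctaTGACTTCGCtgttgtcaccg
TXNRD1 at chr12:104215529-104215828, position -8: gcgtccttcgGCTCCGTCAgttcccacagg
TXNRD1 at chr12:104286782-104287081, position -102: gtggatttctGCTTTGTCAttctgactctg
KEAP1 at chr19:10502722-10503021, position -54: acttttattgTGACACGGCgggcgcccggc
KEAP1 at chr19:10502722-10503021, position -31: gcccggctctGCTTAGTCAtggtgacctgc
The GCLM core and the second KEAP1 core are the same 9 letters, TGACTAAGC. A match of letters is a description of the window and not a binding site, and a window without one may have an element elsewhere.

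HMOX1 and GCLM were the 2 target genes called higher, both with TNFα and apigenin given together. HMOX1 encodes haem oxygenase-1, which breaks haem down to biliverdin, iron and carbon monoxide. Its probe set 16929562 read 5.29, 5.10 and 5.29 with both agents, 5.30, 4.62 and 4.80 with apigenin, 4.84, 4.36 and 4.30 with TNFα, and 4.33, 4.33 and 4.43 in untreated cells. All 6 arrays with apigenin lay above all untreated arrays, and 1 TNFα array lay among the apigenin values. With both agents HMOX1 rose 1.82-fold over untreated cells (log2 difference 0.87, SE 0.18, limma adjusted p = 0.0053). It also rose over TNFα alone, by 0.73 on the log2 scale (SE 0.18, limma adjusted p = 0.018). That second call was lost without TNFα replicate 2 (adjusted p = 0.057), without TNFα replicate 3 (0.075), and without replicate 1 (0.072) or replicate 3 (0.059) of the combined treatment.

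GCLM encodes the modifier subunit of glutamate-cysteine ligase, the enzyme of the rate-limiting step of glutathione synthesis. Its probe set 16689752 read 7.22, 7.15 and 7.05 with both agents, 6.83, 6.54 and 6.85 with apigenin, 6.76, 6.25 and 6.78 with TNFα, and 5.91, 6.38 and 6.35 in untreated cells. The combined arrays were above every other array, the apigenin arrays above every untreated array, and the TNFα arrays overlapped the apigenin and the untreated ones. GCLM rose 1.90-fold with both agents against untreated cells (log2 difference 0.92, SE 0.17, limma adjusted p = 0.0026). The rises of GCLM and HMOX1 against untreated cells passed the threshold whichever single array of those groups was left out, with adjusted p up to 0.016 for GCLM and 0.026 for HMOX1.

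Apigenin alone gave smaller differences in these genes that did not pass the test over all genes. HMOX1 differed by 0.54 on the log2 scale (SE 0.18, 95% confidence interval 0.16 to 0.92, limma adjusted p = 0.067) and GCLM by 0.53 (SE 0.17, interval 0.16 to 0.89, limma adjusted p = 0.065). Both passed when the replicate number was added as a block, with limma adjusted p = 0.019 for HMOX1 and 0.046 for GCLM. The block is given because same-numbered arrays of the 2 groups deviated together over all genes (r = 0.10 to 0.33). These 2 genes did not show it. GCLM was lowest on replicate 1 in untreated cells and on replicate 2 with apigenin. HMOX1 was highest on replicate 3 in untreated cells and on replicate 1 with apigenin. The block also raised the share of all genes called from 11.4% to 17.0%. The HMOX1 difference turned on single arrays: it was 0.35 without apigenin replicate 1, its highest apigenin array (limma adjusted p = 0.28), and 0.69 without apigenin replicate 2, its lowest (limma adjusted p = 0.0375). For GCLM, the apigenin difference in cells given TNFα was 0.54 (SE 0.17, limma adjusted p = 0.062, and 0.043 with the block). The replicate 1 arrays of those 2 groups hardly deviated together (r = 0.063), which limits the use of the block there. The combined treatment was not called against apigenin, with differences of 0.32 for HMOX1 (limma adjusted p = 0.75) and 0.40 for GCLM (0.66). The TNFα effect with apigenin minus that without it was 0.19 for HMOX1 and 0.01 for GCLM (limma adjusted p = 0.999 for each). So the apigenin effects with and without TNFα were not shown to differ.

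**Figure D1:**
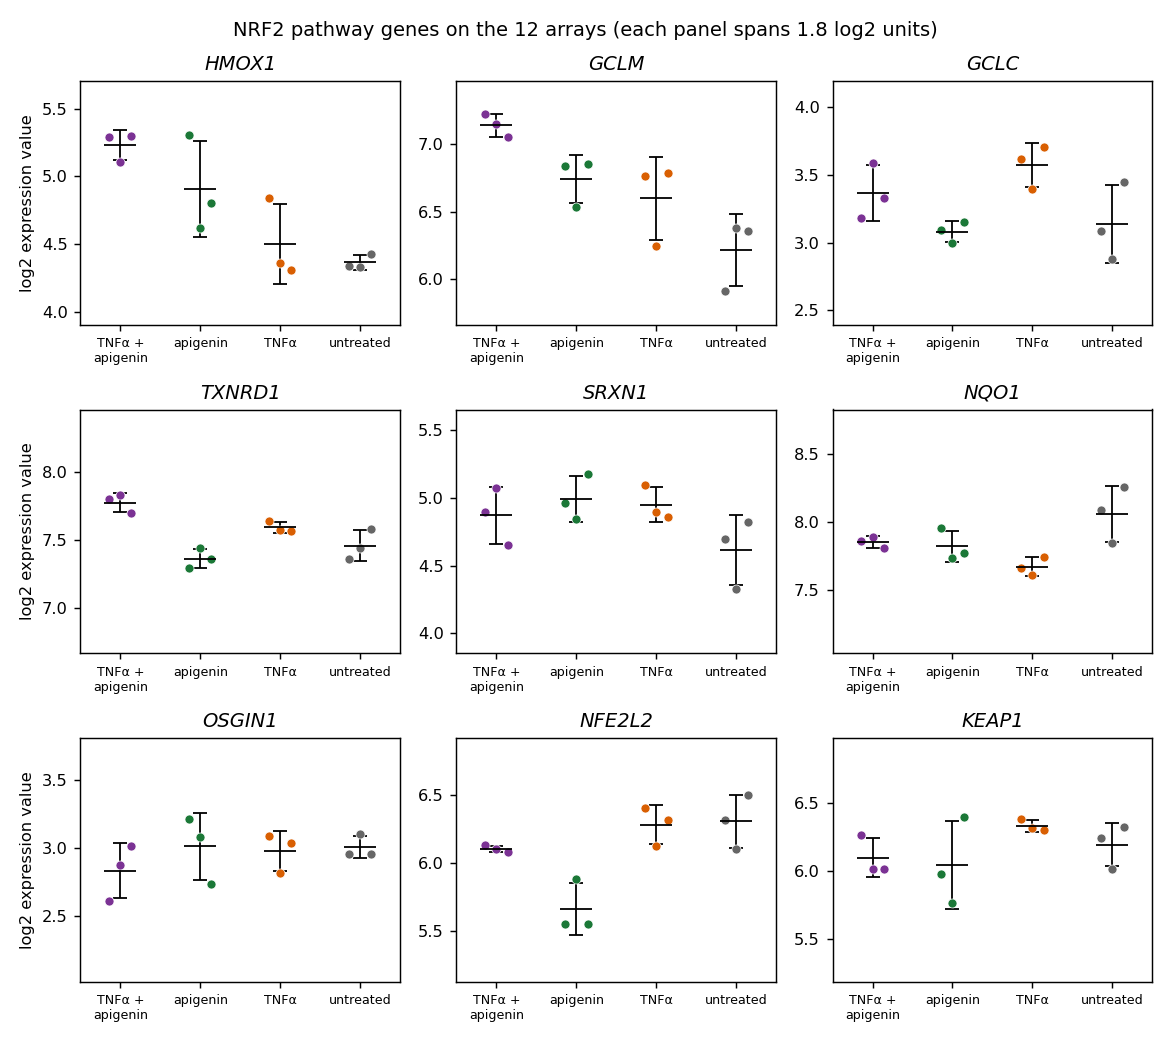
Log2 expression value (y axis) of the 9 genes in each of the 4 groups (x axis), with 1 point per array and bars for the mean and SD of 3 arrays. Every panel spans the same number of log2 units. HMOX1 and GCLM are highest with both agents, and NFE2L2 is lowest with apigenin alone.

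GCLC, TXNRD1 and SRXN1, the other members with roles in glutathione synthesis and the thioredoxin and peroxiredoxin cycle, did not pass in any comparison. GCLC, the catalytic partner of GCLM, read 3.18, 3.59 and 3.33 with both agents, 3.09, 3.00 and 3.15 with apigenin, 3.62, 3.39 and 3.71 with TNFα, and 3.09, 2.88 and 3.45 in untreated cells. The untreated arrays alone spanned most of this range, and the highest value came from a TNFα array. The combined treatment minus untreated cells was 0.23 for GCLC (interval -0.11 to 0.56), and TNFα minus untreated cells was 0.44 (SE 0.16, limma adjusted p = 0.28).

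TXNRD1 encodes the cytosolic thioredoxin reductase, which keeps thioredoxin reduced with NADPH. It read 7.80, 7.83 and 7.70 with both agents, 7.30, 7.44 and 7.36 with apigenin, 7.64, 7.57 and 7.57 with TNFα, and 7.36, 7.44 and 7.58 in untreated cells. The combined arrays lay above all others and the apigenin arrays within or below the untreated range. The combined treatment differed from apigenin by 0.41 (SE 0.11, limma adjusted p = 0.26) and from untreated cells by 0.32 (interval 0.09 to 0.55, limma adjusted p = 0.071). The second of these passed when limma's prior variance followed intensity (adjusted p = 0.038), and was 0.20 after quantile normalisation (adjusted p = 0.25).

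SRXN1 encodes sulfiredoxin, which restores over-oxidised peroxiredoxins. It read 4.89, 5.07 and 4.65 with both agents, 4.96, 4.84 and 5.18 with apigenin, 5.10, 4.89 and 4.86 with TNFα, and 4.70, 4.33 and 4.82 in untreated cells. Each single treatment lay above the untreated arrays, while the combined arrays overlapped them. Apigenin minus untreated cells was 0.38 (SE 0.16, interval 0.04 to 0.71, limma adjusted p = 0.16), and TNFα minus untreated cells was 0.33 (SE 0.16, limma adjusted p = 0.43). The second SRXN1 probe set (16916360) ran from 2.44 to 3.00 over the 12 arrays, with group means of 2.70, 2.60, 2.69 and 2.59 for both agents, apigenin, TNFα and untreated cells. The second probe set thus did not show the differences of the first for either single treatment. It read low, where array medians were 2.09 to 2.16, so whether the 2 probe sets disagree cannot be told.

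NQO1 and OSGIN1, the remaining targets, did not pass in any comparison. NQO1 encodes a quinone reductase that is often used as a readout of NRF2 activity. It read 7.86, 7.89 and 7.81 with both agents, 7.95, 7.73 and 7.77 with apigenin, 7.66, 7.61 and 7.74 with TNFα, and 8.09, 7.84 and 8.25 in untreated cells. All 3 TNFα arrays lay below the untreated ones (log2 difference -0.39, SE 0.12, limma adjusted p = 0.20). For apigenin minus untreated cells the interval was -0.51 to 0.02, and for the combined treatment -0.47 to 0.06.

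OSGIN1, an oxidative-stress-induced gene that restrains growth, stayed between 2.61 and 3.22 on all arrays, not far above the array medians. Its means were 2.83 ± 0.20 with both agents, 3.01 ± 0.25 with apigenin, 2.98 ± 0.15 with TNFα and 3.01 ± 0.08 in untreated cells (SD, n = 3 each). The groups overlapped throughout, and apigenin minus untreated cells was 0.01 with an interval of -0.31 to 0.32.

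NFE2L2, the gene of NRF2 itself, fell with apigenin alone. Its probe set 16905475 read 6.13, 6.10 and 6.08 with both agents, 5.55, 5.88 and 5.55 with apigenin, 6.40, 6.12 and 6.32 with TNFα, and 6.32, 6.10 and 6.50 in untreated cells. The 3 apigenin arrays were below all 9 others. NFE2L2 was 1.57-fold lower with apigenin than in untreated cells (log2 difference -0.65, SE 0.14, limma adjusted p = 0.0067), and the adjusted p reached at most 0.037 over all the alternatives run. With both agents it was not called against untreated cells (difference -0.20, interval -0.50 to 0.09) or against TNFα (-0.18, interval -0.47 to 0.11). The combined treatment minus apigenin was 0.44 (SE 0.14, limma adjusted p = 0.43). The test of the difference itself, the TNFα effect with apigenin minus that without it, gave 0.47 (SE 0.19, limma adjusted p = 0.999), so the 2 apigenin effects were not shown to differ.

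KEAP1, which encodes the sensor that marks NRF2 for degradation, was not called in any comparison. It read 6.26, 6.01 and 6.02 with both agents, 5.97, 5.76 and 6.40 with apigenin, 6.38, 6.31 and 6.30 with TNFα, and 6.24, 6.02 and 6.32 in untreated cells. The apigenin arrays held both its lowest and its highest value. Apigenin minus untreated cells was -0.15 for KEAP1 (interval -0.48 to 0.19), and the combined treatment minus untreated cells was -0.10 (interval -0.43 to 0.24).

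**Figure D2:**
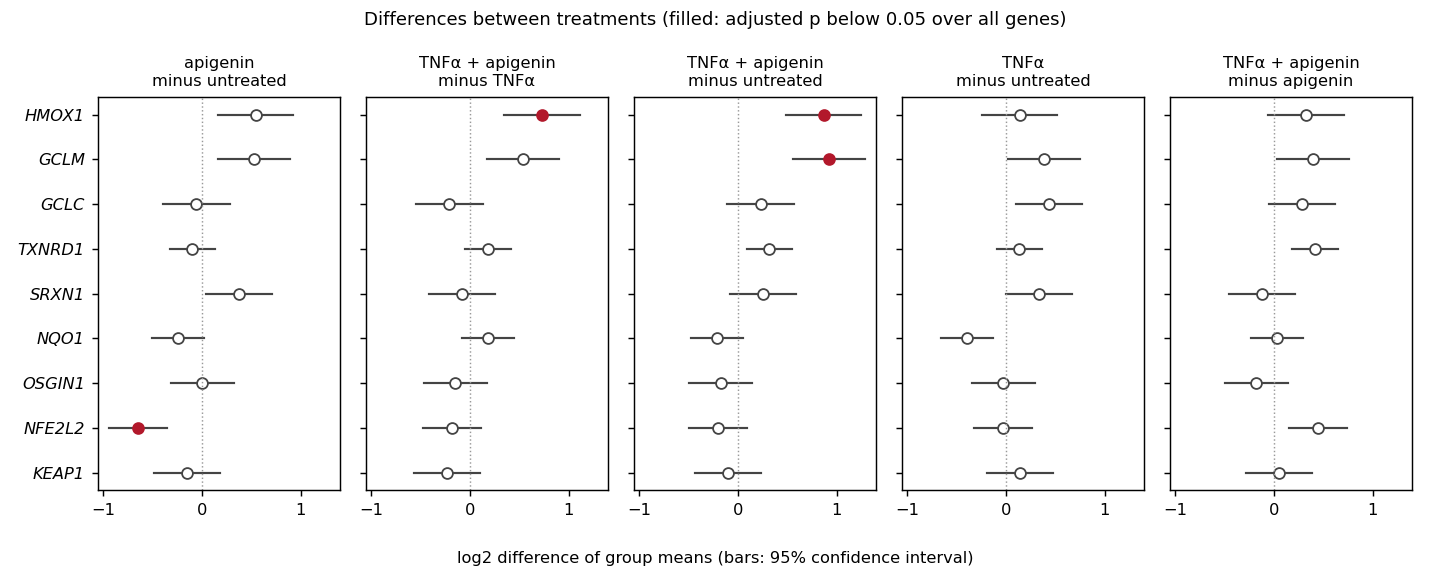
Differences of mean log2 values (x axis) for the 9 genes (rows) in 5 comparisons, with 95% confidence intervals of the limma fit as bars. Filled points passed an adjusted p below 0.05 over all genes: NFE2L2 in the first panel, HMOX1 in the second, and HMOX1 and GCLM in the third.

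Counted over the 9 genes, apigenin against untreated cells called 1 (NFE2L2, lower) and left 8 uncalled, where 11.4% of all genes tested were called. The combined treatment against TNFα called 1 (HMOX1, higher), where 10.1% of all genes were called. The combined treatment against untreated cells called 2, both higher, where 12.5% of all genes were called and 7.15% were called higher. Counts of 1 or 2 among 9 genes lie near these shares, and nothing particular to the pathway is read from them. The 2 groups did not overlap for 4 of the 9 genes with apigenin against untreated cells (25.5% of all genes), 2 with TNFα against untreated cells (13.6%), 5 with both agents against TNFα (26.2%), 4 with both against apigenin (14.1%) and 3 with both against untreated cells (27.6%).

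TNFα alone called none of the 9 in the limma fit (0.997% of all genes were called). An unadjusted limma p under 0.05 came up for 3 of them, and for 2387 of all 20572 genes. Added to apigenin, TNFα again called none (0.209% of all genes), with an unadjusted p under 0.05 for 3 and for 1489 of all genes. The interaction called none in the limma fit (0.0535% of all genes, 0.00972% higher and 0.0437% lower). Its unadjusted p was under 0.05 for 2, NQO1 and NFE2L2, and for 870 of all genes. The single treatments and the combination share their untreated arrays, so these comparisons are not independent of each other. The median log2 difference of the 9 genes was -0.06 for apigenin, 0.14 for TNFα and 0.23 for both, each against untreated cells. Over all genes these medians were -0.02, 0.02 and 0.00.

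The 9 genes did not share one pattern over the arrays. Likeness was measured as the root mean square difference over the 12 arrays, with each gene set to 0 at its untreated mean. This measure counts the size of changes as well as their shape, so genes that change little come out alike. HMOX1 and GCLM differed by 0.25 on this log2 measure, GCLC and TXNRD1 by 0.21, and GCLM and NFE2L2 by 0.87. The last pair ran furthest apart of all pairs. Among the protein-coding genes tested, leaving out provisional symbols, those closest to GCLM were ARL14EP (0.14), PSMC3IP (0.15) and the kinase gene MAP3K8 (0.15). MAP3K8 averaged 3.47 with both agents, 3.06 with apigenin, 3.00 with TNFα and 2.62 in untreated cells. The closest to HMOX1 were SPRY2, a feedback inhibitor of growth factor signalling, EIF1AD and TRIM35 (0.17 each). The closest to NFE2L2 were CKAP5, a microtubule-binding protein gene (0.10), GNE (0.11), which encodes the key enzyme of sialic acid synthesis, and CHML (0.11). These closest genes came from a search over many genes on the same arrays. How small a difference such a search gives by chance was not tested.

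A further 77 genes linked to the pathway were grouped in 8 lists by role, of which 67 had a usable probe set. The lists include partners and regulators of NRF2 and other antioxidant enzymes, so they do not hold NRF2 targets alone. Apigenin against untreated cells called 6 of the 67, 2 higher and 4 lower (8.96%), where 4.55% of all genes were higher and 6.83% lower. With the replicate number as a block it called 12, 4 higher and 8 lower (17.0% of all genes were then called). The combined treatment against TNFα called 5 higher and 6 lower (16.4%), where 4.21% of all genes were higher and 5.92% lower. Against untreated cells it called 4 higher and 8 lower (17.9%), where 7.15% of all genes were higher and 5.37% lower. TNFα alone called 2 higher and none lower (2.99%), where 0.778% of all genes were higher and 0.219% lower, and none was called in the limma fit for TNFα added to apigenin or for the interaction. Calls in this wider set were fragile: of 31, made by 19 genes, 11 held whichever single array was left out.

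Of the 12 genes of glutathione supply and use, apigenin against untreated cells called 1 higher and 1 lower. Of all genes, 4.55% were called higher and 6.83% lower, and the counts of the list lie near these shares. SLC3A2, the heavy chain of the cystine importer, read 8.64, 8.49 and 8.40 with both agents, 8.71, 8.81 and 8.76 with apigenin, 7.77, 7.66 and 7.14 with TNFα, and 7.72, 7.87 and 7.85 in untreated cells. The 6 arrays with apigenin were above the 6 without it. SLC3A2 rose by 0.95 on the log2 scale with apigenin against untreated cells (SE 0.15, limma adjusted p = 0.0011) and by 0.99 with both agents against TNFα (SE 0.15, limma adjusted p = 0.0011). Its partner SLC7A11, the light chain that carries cystine and a known NRF2 target, rose by 0.70 with both agents against TNFα (SE 0.13, limma adjusted p = 0.0045). Against untreated cells SLC7A11 differed by 0.41 with apigenin (limma adjusted p = 0.065). It averaged 8.29 with both agents, 8.30 with apigenin, 7.59 with TNFα and 7.89 in untreated cells.

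The glutathione transferase GSTA4 fell with apigenin (-0.79, SE 0.21, limma adjusted p = 0.027) and with both agents against untreated cells (-0.80), and each call was lost in 4 of 6 fits without 1 array. With both agents against TNFα, GSTM3 rose by 0.58, with its call lost with quantile normalisation (limma adjusted p = 0.054) and in 2 of 6 such fits. GSTM3 averaged 4.93 with both agents, 4.94 with apigenin, 4.35 with TNFα and 4.60 in untreated cells. Glutathione synthetase (GSS) differed by -0.44 with both agents against TNFα, a fall whose call was lost in all 6 such fits. Glutathione reductase (GSR), an uncalled member, averaged 6.06 with both agents, 6.09 with apigenin, 6.35 with TNFα and 6.22 in untreated cells.

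The thioredoxin list had none of 5 members called in any comparison of the limma fit. Of all genes, 0.0535% to 12.5% were called, depending on the comparison. None of 5 lies near these shares, and nothing particular to the list is read from it. Thioredoxin itself (TXN) stayed between 10.49 and 10.80 on the 12 arrays. Among the 5 tested genes of NADPH supply, PGD, of the pentose phosphate pathway, rose by 0.40 with apigenin and 0.44 with both agents against untreated cells, and lost these calls in 5 and 4 of 6 fits without 1 array. The PGD call with both agents was also lost with quantile normalisation (limma adjusted p = 0.053). Malic enzyme ME1 fell by 1.21 with both agents against TNFα (SE 0.24, limma adjusted p = 0.0063). It read 4.97, 4.56 and 5.24 with both agents, against 6.18, 5.74 and 6.49 with TNFα, with no overlap. ME1 read 4.90, 4.97 and 5.50 with apigenin and 5.38, 5.38 and 6.04 in untreated cells. IDH1 fell by 0.58 with both agents against untreated cells and lost its call in 2 of 6 such fits.

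In the list of quinone and carbonyl detoxification, 1 of 11 tested genes fell with apigenin and none rose. Of all genes, 6.83% were called lower and 4.55% higher, and the count of the list lies near these shares. The gene that fell was CBR3, a carbonyl reductase, which read 3.13, 3.18 and 3.26 with both agents, 3.25, 3.05 and 3.16 with apigenin, 4.46, 3.56 and 3.91 with TNFα, and 4.28, 3.83 and 4.47 in untreated cells. Every array with apigenin was below every array without it. CBR3 fell by 1.04 on the log2 scale with apigenin (SE 0.20, limma adjusted p = 0.0044) and by 1.01 with both agents against untreated cells (SE 0.20, limma adjusted p = 0.0049). UGDH, which supplies UDP-glucuronic acid, rose by 0.58 with both agents against untreated cells and lost that call in 5 of 6 fits without 1 array. That call was also lost with quantile normalisation (limma adjusted p = 0.061).

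The haem and iron list had none of 6 tested members called with apigenin alone in the limma fit, where 11.4% of all genes were called. FECH, the enzyme that inserts iron into haem, fell by 0.94 with both agents against TNFα (limma adjusted p = 0.029) and by 0.82 against untreated cells, and lost these calls in 5 and 6 of 6 fits without 1 array. The ferritin light chain FTL stayed between 10.91 and 11.22. Of the 6 export pumps ABCC4 fell by 0.74 with apigenin against untreated cells (SE 0.12, limma adjusted p = 0.0012) and by 0.50 with both agents (adjusted p = 0.013). ABCG2 fell by 0.96 with both agents against untreated cells and ABCC2 rose by 0.50 with both against TNFα. These calls were lost in 4 and 6 of 6 fits without 1 array. ABCC2 was low, with means of 2.54 with both agents and 2.04 with TNFα, where array medians were 2.09 to 2.16.

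Among 12 tested partners and regulators of NRF2 NFE2L3, which encodes the related factor NRF3, had calls in 4 comparisons. It read 6.62, 6.45 and 6.20 with both agents, 6.46, 6.02 and 6.16 with apigenin, 7.57, 7.72 and 7.50 with TNFα, and 6.92, 6.85 and 7.05 in untreated cells. TNFα arrays were highest and every array with apigenin was below every untreated array. NFE2L3 fell by 0.72 with apigenin against untreated cells (SE 0.14, limma adjusted p = 0.0047) and by 1.18 with both agents against TNFα (SE 0.14, limma adjusted p = 2.2e-04). Its rise with TNFα was 0.66 (limma adjusted p = 0.049), a call lost with quantile normalisation (limma adjusted p = 0.087) and in all 6 fits without 1 array. With both agents against untreated cells it fell by 0.52 (limma adjusted p = 0.030), a call lost in 4 of 6 such fits.

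SQSTM1, the autophagy adaptor that can draw KEAP1 away from NRF2, rose by 0.65 with TNFα (limma adjusted p = 0.041), and lost that call in 5 of 6 fits without 1 array. The small MAF gene MAFG rose by 0.50 with both agents against untreated cells, a call lost in 4 of 6. Quantile normalisation also removed it (limma adjusted p = 0.055). The scaffold CUL3, an uncalled member, averaged 6.63, 6.48, 6.44 and 6.26 with both agents, apigenin, TNFα and neither. Of 10 other antioxidant enzymes, GPX3 rose by 0.70 with both agents against TNFα (limma adjusted p = 0.013) and lost its call in 1 of 6 such fits. GPX3 averaged 4.28 with both agents, 4.33 with apigenin, 3.58 with TNFα and 4.12 in untreated cells. Catalase (CAT) fell by 0.43 with both against untreated cells and lost its call in 4 of 6.

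**Figure D3:**
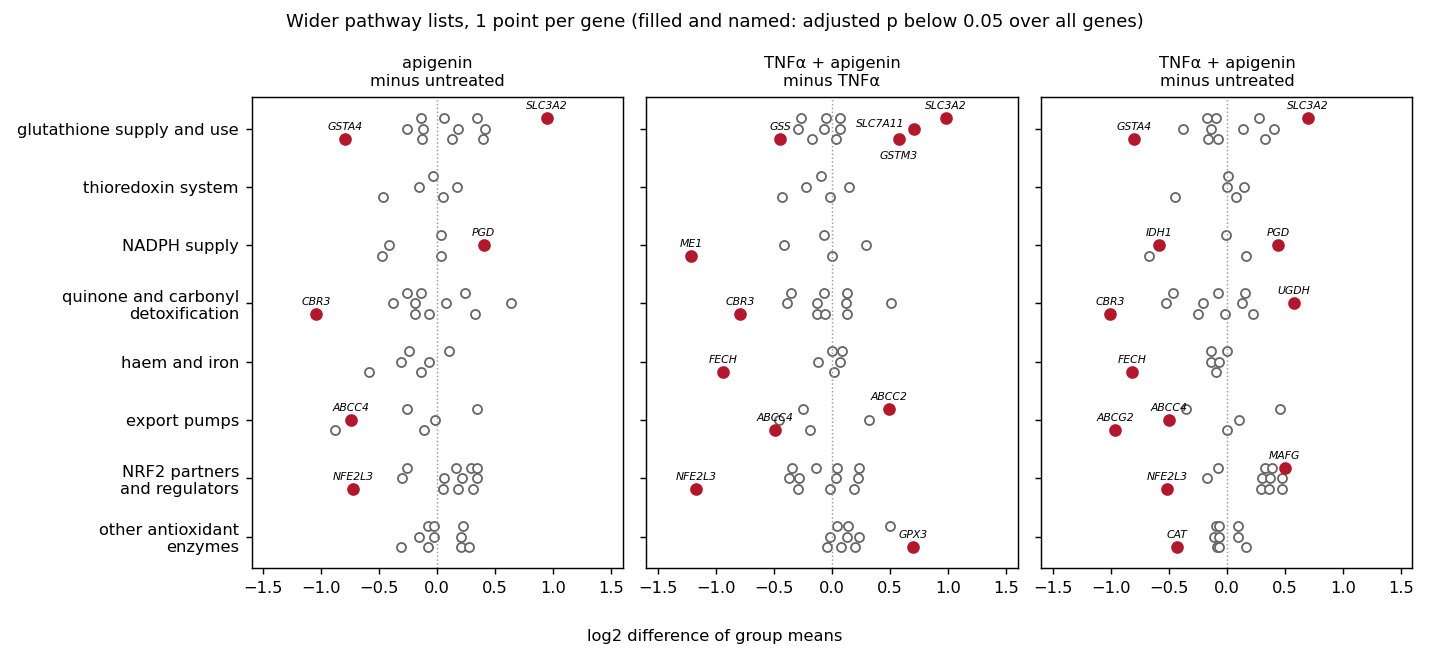
Differences of mean log2 values (x axis) for the 67 further genes linked to the pathway, in rows by list, for 3 comparisons with apigenin in 1 arm. Filled, named points passed an adjusted p below 0.05 over all genes, and most points lie near 0 on either side.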

How the data were processed

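The deposited log2 values, 1 column per array for 53617 probe sets, were made by the authors and, per the submitters' processing notes, came from Affymetrix Expression Console. Its version, algorithm and settings are not stated there. The values ran from 0.536 to 12.5 with none missing. The probe table gave exactly 1 gene symbol to 23871 probe sets, several to 1842 and none to 27904. Symbols were updated through the gene identifier. The filter on low values kept probe sets at or above the 25th percentile of an array (1.60 to 1.64) on 3 or more arrays. For the 549 genes with several kept probe sets, that of highest mean over the 12 arrays was used. This left 20572 genes.

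The 12 arrays were fitted together, with a mean for each of the 4 groups and 8 residual degrees of freedom, by limma 3.58.1 (R 4.3.3) with eBayes. Every adjusted p is from limma with Benjamini-Hochberg adjustment over all genes of a comparison, and genes were called below 0.05. The number of arrays limits the precision. Whether the 3 samples of a group were separate cultures is not in the labels, and p-values cover the spread among these samples alone, and that spread may be technical. The smallest exact p for 3 arrays against 3 is 0.1. The fit was tested on simulated data. The members and lists were chosen with earlier results of these data known. The text names the 9 members, up to 4 called genes of each further list and comparison, 1 uncalled gene of a list, and the 3 genes most like a called member whose group means span at least 0.5.

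The labels number the samples 1 to 3 in each group without saying what a number shares. Over all genes, same-numbered arrays of the apigenin and untreated groups deviated together from their group means (r = 0.10 to 0.33, each above the limit of 0.1). The fit with the number as a block is therefore given beside that comparison, and also for GCLM with both agents against TNFα. In each other comparison the replicate 1 pair fell under 0.1. Even so, 13 of all 18 same-numbered pairs passed the limit, and r reached 0.46 between TNFα and untreated arrays. Alternatives were quantile normalisation, no filter and a stricter filter, the replicate block, an intensity trend, the compared groups alone, the mean of a gene's probe sets, and leaving out each array. They were extended to the further lists after the data were seen.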

Additional observations from a re-analysis of the deposited data

How the results depend on the processing

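For the 9 genes in 6 comparisons, 709 of 747 alternative values kept their direction and their side of the threshold. Part of this was fixed beforehand. The filters, the block, the trend and the compared groups alone leave a member's log2 difference unchanged, and the mean of probe sets can change SRXN1 alone. Most of the 54 results were also uncalled to begin with, so this count is not read as a measure of robustness. Called members kept their calls in all alternatives except HMOX1 with both agents against TNFα, as reported. Apigenin against untreated cells called 2 members with quantile normalisation, 3 with the replicate block and 2 with an intensity trend, where 14.9%, 17.0% and 11.6% of all genes were called, and 1 to 2 without single arrays (7.49% to 10.0%). The combined treatment against TNFα called 2 with quantile normalisation, 2 with the block and 2 with the trend, the added gene being GCLM each time (limma adjusted p = 0.039, 0.043 and 0.047), where 13.4%, 16.1% and 10.4% of all genes were called, and 0 to 1 without single arrays (5.82% to 10.1%). With apigenin the added gene was GCLM under quantile normalisation and the trend, and HMOX1 and GCLM under the block; the block changed no other call of a member. All 12 arrays were closest to their own number in the other groups, which is a hint from the data and not from the design. Of the further genes, apigenin called 11 with quantile normalisation (3 higher, 8 lower) and 12 with the block (4 higher, 8 lower), beside the same shares of all genes. TNFα called 4 with quantile normalisation (1 higher, 3 lower), 7 with the block (4 higher, 3 lower) and 0 in the compared groups alone, where 1.48%, 3.07% and 0.355% of all genes were called, and 0 to 1 without single arrays (0.479% to 1.53%). The combined treatment against TNFα called 17 with the block (6 higher, 11 lower) and 5 to 9 without single arrays, beside the shares above, and split 4 higher and 8 lower with quantile normalisation. Against untreated cells it called 21 with the block (9 higher, 12 lower; 18.6% of all genes) and 4 to 11 without single arrays (8.45% to 11.8%), and 1 higher and 13 lower with quantile normalisation, which split all genes into 1300 higher and 2049 lower against 1471 and 1105 without it. The cause was not tested.

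Values that turned in sign were uncalled and near 0. With quantile normalisation OSGIN1 with apigenin was -0.028, and with both agents against apigenin NQO1 was -0.044 and KEAP1 -0.048, and the GCLM interaction was -0.00471. Without single arrays, apigenin minus untreated cells ranged from -0.19 to 0.10 for GCLC and -0.10 to 0.14 for OSGIN1. TNFα minus untreated cells ranged from -0.033 to 0.24 for HMOX1, -0.13 to 0.071 for NFE2L2 and -0.081 to 0.055 for OSGIN1. Both agents minus TNFα ranged from -0.18 to 0.031 for SRXN1, and both minus apigenin from -0.011 to 0.10 for NQO1 and -0.089 to 0.23 for KEAP1. The interaction ranged from -0.16 to 0.17 for GCLM and -0.23 to 0.091 for KEAP1.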
